A study of Mus musculus with 36 samples.

Results

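The 9 genes described here encode enzymes, 1 transporter and 1 oxidase subunit through which macrophages make nitric oxide, itaconate and superoxide, or use the arginine that nitric oxide is made from. They are Nos2, Irg1 (listed under this older symbol of Acod1), Arg1, Arg2, Ass1, Slc7a2, Gch1, Cybb and Sod2. They were chosen by name, and all 9 were found among the 16439 genes of the deposited table. RNA was sequenced, with single-end reads of 75 bases, from macrophages of mouse bone marrow (36 libraries). These were grown from marrow for 7 days in medium with 10% serum and 10% L929 supernatant, a source of the macrophage growth factor M-CSF. They carried wild-type Tnip2 (WT) or the D310N form of Tnip2 (D310N). Both genotypes were unstimulated (0 min) or given lipopolysaccharide (LPS, a bacterial cell wall component) at 100 ng/ml for 30, 60, 120, 240 or 360 min, with 3 libraries in each of the 12 groups. Tnip2 encodes ABIN-2, a partner of the kinase Tpl2 and of ubiquitin chains, and the comparisons ask how its D310N form alters the RNA response to LPS. Strain, age, the number of mutated copies and whether the 3 libraries came from separate animals or cultures are not given in the sources used here, so p-values measure the spread between libraries, which may be technical.

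As background, LPS acts through the receptor TLR4 and the transcription factors NF-kB, AP-1 and, by way of type I interferon, IRF1 to switch macrophages to an antimicrobial programme. Nos2, the inducible nitric oxide synthase, turns arginine into nitric oxide and citrulline. Slc7a2 imports arginine, Ass1 takes part in remaking arginine from citrulline, Gch1 starts the synthesis of the cofactor tetrahydrobiopterin, and the arginases Arg1 and Arg2 compete for the same arginine. Irg1 encodes cis-aconitate decarboxylase, which diverts the citrate cycle to itaconate. Cybb encodes the catalytic subunit of the phagocyte NADPH oxidase that makes superoxide. Sod2 is the mitochondrial superoxide dismutase, which removes superoxide in mitochondria.

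On GRCm38 (mm10) in the GENCODE annotation, Nos2 lies on chr11:78920787-78960254 (+), Irg1 on chr14:103046977-103056573 (+), Arg1 on chr10:24915221-24927484 (-), Arg2 on chr12:79130777-79156301 (+) and Ass1 on chr2:31470207-31520672 (+). Slc7a2 lies on chr8:40862396-40922308 (+), Gch1 on chr14:47153895-47189413 (-), Cybb on chrX:9435252-9487771 (-) and Sod2 on chr17:13006846-13040063 (+). Arg2 overlaps Vti1b and the antisense transcript Gm48780, and Slc7a2 overlaps Gm26584, all on the other strand. Whether reads were counted by strand is not given in the sources used here, so reads of these overlapping genes may not be told apart. Gch1 contains the processed pseudogenes Gm49134 and Gm18811 within its span.

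Promoter windows were read from RefSeq (GRCm38.p6) for the 5 members matched there, Irg1, Gch1, Cybb, Sod2 and Ass1. A window holds up to 250 bases before the transcript start, on the gene's strand, with exonic bases removed. Those of 4 members that rose together after LPS are shown, for Irg1 chr14:103046762-103046976 (+), for Gch1 chr14:47189414-47189663 (-), for Cybb chrX:9469325-9469574 (-) and for Sod2 chr17:13007589-13007816 (+). The windows of Cybb and Sod2 lie inside the GENCODE spans given above, because the RefSeq starts of these genes differ from those of GENCODE. Distances are counted from the RefSeq start. Capitals mark matches to the motifs named after the sequences.
Irg1: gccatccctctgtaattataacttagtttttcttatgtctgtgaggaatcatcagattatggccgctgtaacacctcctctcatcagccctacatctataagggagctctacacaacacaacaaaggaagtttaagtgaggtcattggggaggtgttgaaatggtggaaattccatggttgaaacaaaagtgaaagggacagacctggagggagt
Gch1: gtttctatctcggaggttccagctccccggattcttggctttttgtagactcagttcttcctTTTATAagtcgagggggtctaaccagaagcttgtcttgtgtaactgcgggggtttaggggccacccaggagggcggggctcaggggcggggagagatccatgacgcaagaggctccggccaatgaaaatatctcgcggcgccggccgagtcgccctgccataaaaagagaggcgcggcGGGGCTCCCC
Cybb: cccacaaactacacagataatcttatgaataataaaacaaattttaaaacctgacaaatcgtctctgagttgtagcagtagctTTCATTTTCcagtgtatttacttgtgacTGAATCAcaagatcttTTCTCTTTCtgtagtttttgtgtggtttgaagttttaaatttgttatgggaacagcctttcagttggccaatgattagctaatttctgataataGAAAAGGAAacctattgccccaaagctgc
Sod2: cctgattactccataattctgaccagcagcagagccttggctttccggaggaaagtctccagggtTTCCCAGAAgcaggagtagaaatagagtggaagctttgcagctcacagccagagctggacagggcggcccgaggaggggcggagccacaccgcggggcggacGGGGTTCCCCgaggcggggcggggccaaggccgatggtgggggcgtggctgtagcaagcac
Both strands were searched for the NF-kB motif (by its usual consensus), the interferon-stimulated response element (ISRE, GAAANNGAA), the gamma-activated site (GAS, TTCNNNGAA), AP-1 (TGANTCA), C/EBP (TTGCNNAA) and the TATA box (TATAAA). No 2 of the matches shown share a base. An NF-kB match lay 10 to 1 bases before the Gch1 start and 83 to 74 bases before the Sod2 start, a motif found in 3.9% of 32851 mouse windows of 250 bases. Sod2 also held a GAS match (185 to 177 bases before the start, in 7.0% of windows), and Gch1 a TATA box match on the other strand (188 to 183 bases before the start, in 12.4% of windows). Cybb held 3 ISRE matches (at 167 to 159, 123 to 115 and 29 to 21 bases before the start, in 7.1% of windows) and an AP-1 match (139 to 133, in 6.7%). The Irg1 and Ass1 windows held none of these letters, and C/EBP, present in 9.6% of all windows, was matched in none of the 5. With exonic bases removed, the Irg1 and Ass1 windows end 36 and 64 bases before the start, so the bases nearest the start were not searched. The shares are those of full windows of 250 bases. A match describes letters and not binding.

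Values are the deposited normalised levels on a log2 scale. They may not be scaled by transcript length, so levels of members are compared between groups of 1 gene and not between genes. A gene was tested when it reached 10 on the linear scale (3.32 in log2) in at least 3 libraries, which 11656 genes did, and was called at a Benjamini-Hochberg adjusted p under 0.05 in limma. Differences are given in log2 with their standard error (SE), and with n = 3 libraries per group. Of the 9 members, 8 were tested. Arg1 was below that level in all 36 libraries, with values from 0.77 to 2.21. Its 3 libraries ranged from 1.18 to 1.54 in WT and from 1.13 to 2.21 in D310N at 0 min, and no library exceeded its genotype's range after LPS. Arg2 was at or above 3.32 in 19 libraries, 0 of them at 0 min, so it entered the tests only through its values after LPS and its rise supports nothing about the set.

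All 12 macrophage markers were expressed, from a median of 9.89 for Mertk to 17.01 for Lyz2, with 2 higher and 9 lower in D310N on average, where 22.7% of all tested genes were higher and 25.4% lower. Markers of other cells were mixed. Ly6g (highest value -3.09), Elane (-3.81) and Prtn3 (-3.87) of neutrophils and Cd3d (-2.83) and Cd8a (-1.63) of lymphocytes were near the bottom of the table, which reaches down to -4.14. Mmp8 (median 7.74), Cd4 (6.75), Pf4 (10.08), Bst2 (11.38) and Cd79b (4.58), from the same or other such lists, were expressed. The summed linear level of 7 osteoclast markers was 2020 to 2550 in WT and 2760 to 5440 in D310N libraries, without overlap, with 5 of 6 tested markers higher on average and Calcr at -3.23 or less. A sum weighs the most expressed genes most, here Atp6v0d2 (median 10.79) and Dcstamp (9.13). The sums of the other lists overlapped between genotypes. Of their tested markers, 3 of 3 of neutrophils (sums of 155 to 253 and 227 to 369), 1 of 1 of B cells and 1 of 1 of erythroid, megakaryocyte and mast cells were higher, and 1 of 1 of T and NK cells was lower. Of 6 dendritic cell markers 2 were higher and 2 lower, and of 4 stromal markers 1 and 2. In bulk RNA, fewer cells of a kind and less RNA per cell cannot be told apart, and the part of these markers in the differences between genotypes was not tested. Replicate 1 of WT at 360 min stood apart. Its median absolute deviation over genes from the mean of the rest of its group was 0.194, against 0.042 to 0.133 in the other 35 libraries. Without it, all 8 members were still called higher at 360 min than at 0 min in WT, the rise of Arg2 being 0.42 in place of 0.70 (limma adjusted p = 0.0332, in a range from 0.000115 to 0.0515). The differences between genotypes at 360 min without it were -0.26 for Nos2, 0.05 for Irg1, 0.05 for Arg2 (in place of -0.24), -0.34 for Ass1 (in place of -0.14), 0.28 for Slc7a2, 0.06 for Gch1, 0.02 for Cybb and 0.07 for Sod2. Of these only that of Nos2 passed. The differences in response at 360 min without it, none of them called, were -0.19 for Nos2 (in place of -0.07), 0.09 for Irg1, 0.27 for Arg2, 0.24 for Ass1, 0.22 for Slc7a2, 0.14 for Gch1, 0.05 for Cybb and 0.002 for Sod2. The difference in Tnip2 RNA was 0.03 ± 0.03 (limma adjusted p = 0.441), which does not check the labels, because a changed codon leaves the RNA countable.

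In WT macrophages LPS raised the RNA of the nitric oxide and itaconate enzymes and of their partners, each on its own schedule. Sod2 and Irg1 rose by 30 min, and Arg2, Slc7a2, Gch1, Cybb and slightly Nos2 by 60 min. The largest step of Nos2 and Slc7a2 in log2 was that from 60 to 120 min. For Nos2 it was 3.56, against 2.86 from 120 to 240 min. At 240 min Nos2 stood 103-fold above 0 min (6.68 ± 0.07), Irg1 41.0-fold (5.36 ± 0.04), Slc7a2 19.0-fold (4.25 ± 0.10), Sod2 6.62-fold (2.73 ± 0.04), Gch1 5.30-fold (2.41 ± 0.04) and Cybb 3.30-fold (1.72 ± 0.05). Of the 8 members tested, 2 were called higher in WT at 30 min, 7 at 60 min, 7 at 120 min, 7 at 240 min and 8 at 360 min, and 0 were called lower. Over all tested genes, 4.79%, 20.1%, 32.4%, 39.6% and 39.3% were called higher at these times. In D310N macrophages 2, 7, 7, 8 and 8 members were called higher, where 5.16%, 21.3%, 31.9%, 39.0% and 39.0% of all tested genes were. From 60 min on these counts include Arg2, which entered the tests only through its values after LPS. With a filter of 50 on the linear scale, which Arg2 did not pass, 2, 6, 6, 6 and 7 members were called in WT. In D310N they were then 2, 6, 6, 7 and 7. The comparisons within a genotype share its 3 libraries at 0 min.

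**Figure D1:**
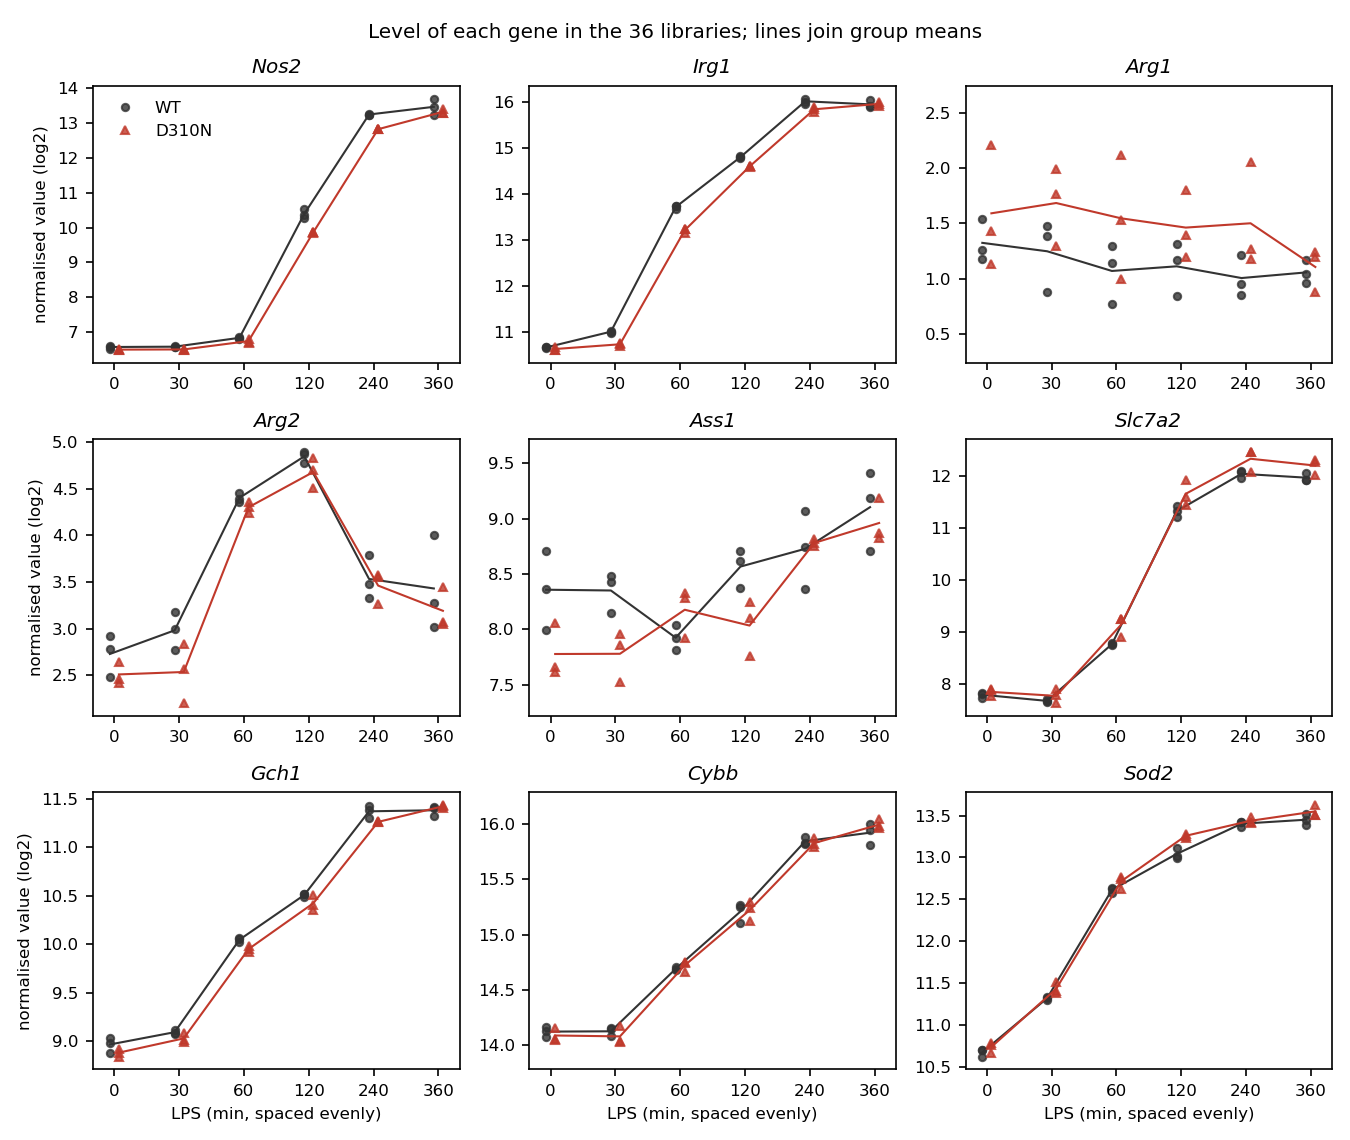
Normalised level (log2, vertical axes with their own range) of each of the 9 genes against time of LPS (min, evenly spaced) in the 18 WT (circles) and 18 D310N (triangles) libraries, with lines joining the group means of 3. Nos2 climbs late and D310N lies below WT at 120 and 240 min, Irg1 climbs from 30 min with D310N below WT at 60 min, Arg2 peaks at 120 min, and Arg1 stays at 2.21 or less.

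Nos2 was not called at 30 min and had the largest fold over 0 min of the 8 tested members at 240 and 360 min. In WT its 3 libraries stood at 6.60, 6.52 and 6.58 at 0 min, at 6.59, 6.57 and 6.56 at 30 min and at 6.86, 6.80 and 6.83 at 60 min. They reached 10.54, 10.29 and 10.36 at 120 min, then 13.26, 13.25 and 13.24 at 240 min, before ending at 13.24, 13.71 and 13.47 (360 min). The 30 min libraries thus overlapped those at 0 min, and each later group up to 240 min cleared the one before it. In D310N they stood at 6.51, 6.48 and 6.49 at 0 min, at 6.49, 6.49 and 6.51 at 30 min and at 6.80, 6.69 and 6.72 at 60 min. They reached 9.88, 9.88 and 9.84 at 120 min, then 12.83, 12.83 and 12.82 at 240 min, before ending at 13.40, 13.29 and 13.29 (360 min). All 3 D310N libraries lay below all 3 WT libraries at 120 and at 240 min, and by less than 0.1 on average, uncalled, at 0 and 30 min. The genotypes overlapped at 60 and 360 min. Separation of this kind was common. Of all tested genes, 32.7%, 33.4%, 37.4%, 31.7%, 37.6% and 22.2% had no overlap between genotypes at the 6 times. Over the WT steps from 30 to 60, 60 to 120 and 120 to 240 min, 53.5%, 66.3% and 68.9% had none.

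Nos2 RNA was lower in D310N at the times when the gene was rising steeply. The difference was -0.53 ± 0.07 at 120 min (a change of -30.7%, limma adjusted p = 1.00e-06) and -0.42 ± 0.07 at 240 min (-25.4%, adjusted p = 4.86e-05). At 360 min it was -0.15 ± 0.07 (adjusted p = 0.135, 95% interval -0.28 to -0.01). Without replicate 1 of WT at 360 min it was -0.26 (adjusted p = 0.00152, against 0.00152 to 0.787 over all alternatives). Between 240 and 360 min Nos2 rose by 0.50 ± 0.07 in D310N (adjusted p = 1.42e-06) and by 0.22 ± 0.07 in WT (adjusted p = 0.0153). The WT step missed the threshold without replicate 2 (0.10, adjusted p = 0.259) or replicate 3 (0.22, adjusted p = 0.0584) of WT at 360 min and with only the 2 compared groups in the fit (adjusted p = 0.330), over alternatives that ranged from 1.15e-05 to 0.330.

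The rise of Nos2 over 0 min itself differed between the genotypes. It was 3.83 in WT and 3.37 in D310N at 120 min, a difference of -0.45 ± 0.09 (limma adjusted p = 0.0100), and 6.68 and 6.34 at 240 min, a difference of -0.35 ± 0.09 (adjusted p = 0.0467). The call at 120 min was lost without replicate 1 of WT at 120 min (-0.38, adjusted p = 0.0525, the highest of all alternatives, which began at 0.000159). The call at 240 min stood close to the threshold and was lost under 30 of 46 alternatives, 27 of them leaving out 1 library, with adjusted p from 0.000244 to 0.116. Over the 5 times jointly, an F test called Nos2 (adjusted p = 0.00227) and Irg1 (adjusted p = 1.33e-06) among the 8 members, where 4.84% of all tested genes were called.

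Irg1, the itaconate enzyme, separated the genotypes earlier. In WT its libraries stood at 10.66, 10.66 and 10.65 at 0 min, at 10.98, 11.02 and 11.00 at 30 min and at 13.74, 13.73 and 13.67 at 60 min. They stood at 14.82, 14.78 and 14.79 at 120 min, at 15.96, 16.00 and 16.07 at 240 min and at 16.03, 15.90 and 15.91 at 360 min. In D310N they stood at 10.66, 10.61 and 10.60 at 0 min, at 10.68, 10.73 and 10.76 at 30 min and at 13.15, 13.24 and 13.22 at 60 min. The genotypes overlapped at 0 min and had no overlap at 30 or 60 min. The D310N libraries stood at 14.59, 14.59 and 14.60 at 120 min, at 15.78, 15.85 and 15.89 at 240 min and at 15.92, 15.99 and 15.95 at 360 min. All D310N libraries were thus below all WT libraries from 30 to 240 min, and among them again at 360 min. Of all tested genes, 33.4%, 37.4%, 31.7% and 37.6% had no overlap in either direction at 30, 60, 120 and 240 min.

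The difference in Irg1 was -0.27 ± 0.04 at 30 min (limma adjusted p = 5.08e-06), -0.50 ± 0.04 at 60 min (-29.5%, adjusted p = 5.87e-11) and -0.21 ± 0.04 at 120 min (adjusted p = 0.000202). It was -0.17 ± 0.04 at 240 min (adjusted p = 0.00159) and 0.01 ± 0.04 at 360 min, with a 95% interval of -0.07 to 0.09. Under quantile normalisation the 240 min difference was -0.04 (adjusted p = 0.605, against 0.000261 to 0.605 over the alternatives). At 30 min Irg1 had risen by 0.34 ± 0.04 in WT (adjusted p = 3.49e-08) and by 0.10 ± 0.04 in D310N (adjusted p = 0.114, and 0.0473 without replicate 1 of WT at 360 min, in a range from 0.00724 to 0.468). The test of that difference at 30 min gave -0.24 ± 0.05 with adjusted p = 0.710, and 0.0161 with library weights, the lowest of a range that went up to 1.0. At 60 min the rise was 3.06 in WT and 2.59 in D310N, and the difference of -0.47 ± 0.05 was called (adjusted p = 2.71e-06) under every alternative run. At 120 min the response difference was -0.17 ± 0.05 (adjusted p = 0.171). Without replicate 1 of WT at 360 min that p was 0.0462, the lowest of a range that went up to 0.808.

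Over all genes, few such differences in response were called. A different LPS response was called for 0.0% of tested genes at 30 min, 0.0686% at 60 min, 0.935% at 120 min, 1.95% at 240 min and 2.01% at 360 min. Among the 8 members the calls were 0 at 30 min, 1 at 60 min (Irg1), 1 at 120 min (Nos2), 1 at 240 min (Nos2) and 0 at 360 min. At an unadjusted p under 0.05 limma counted 1 member (Irg1) and 108 genes at 30 min, and 1 member (Gch1, 0.12 ± 0.06) and 1672 genes at 360 min. At 60 min it counted 3 members and 339 genes. The 108 and 339 genes are less than a share of 0.05 of the 11656 tested, the share expected without any difference. The tests at 30 and 60 min may thus be too strict, and few calls there do not show that differences were rare. With library weights, Irg1 was called at 30 min and Ass1 at 60 and 240 min.

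Between the genotypes at single times, members were called in both directions. At 0 min 1 of 8 was called, at 30 min 2, at 60 min 2, at 120 min 5, at 240 min 2 and at 360 min 0. Over all tested genes 10.7%, 12.2%, 12.9%, 17.7%, 17.0% and 16.3% were called. The 5 members called at 120 min were Nos2, Irg1 and Ass1, lower in D310N, and Slc7a2 and Sod2, higher in D310N. At 360 min limma counted 3 members (Nos2, Slc7a2 and Sod2) and 3523 genes at an unadjusted p under 0.05. On average over the 6 times 7 of 8 members were called, 5 lower (Nos2 -0.22, Irg1 -0.20, Arg2 -0.21, Ass1 -0.25 and Gch1 -0.07) and 2 higher (Slc7a2 0.23 and Sod2 0.10), where 48.1% of all tested genes were called. The median of the 8 differences was -0.13, against -0.001 over all tested genes.

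**Figure D2:**
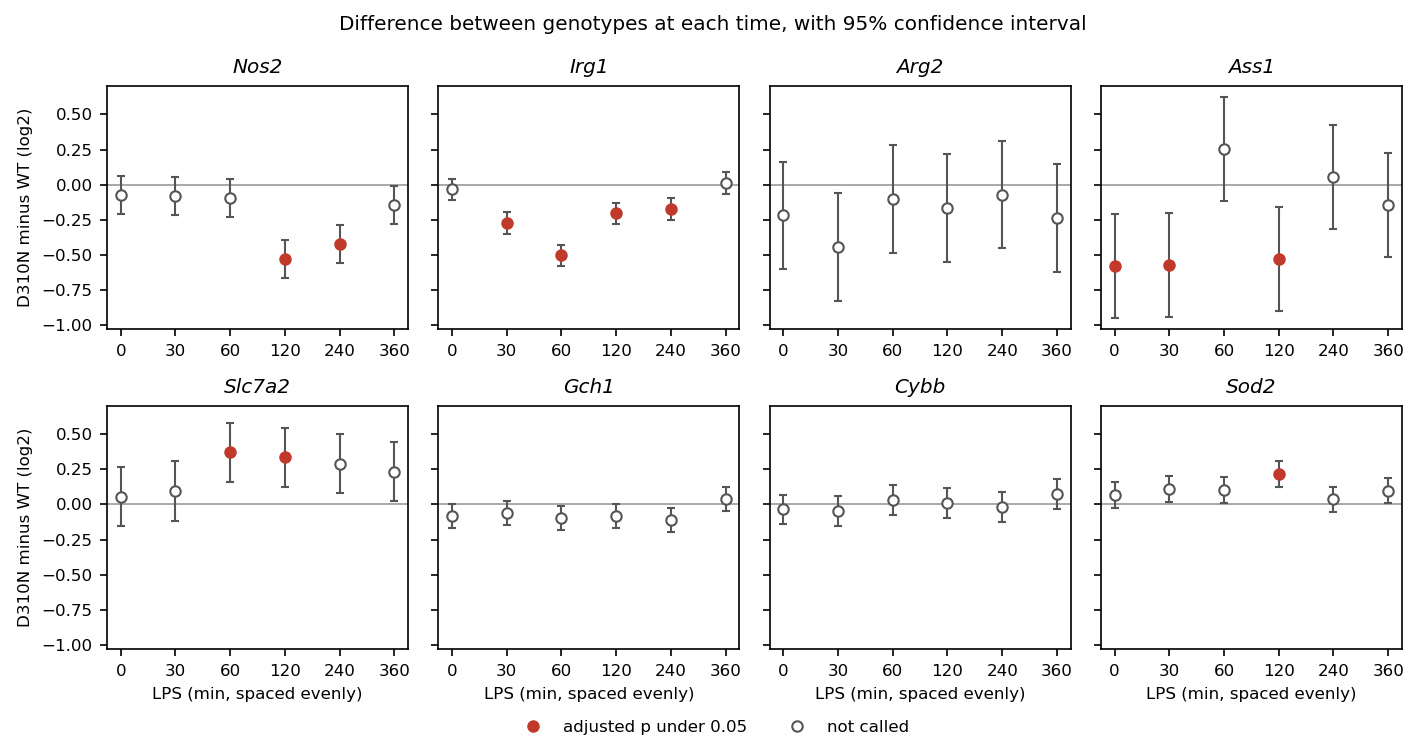
Difference between D310N and WT (log2, with its 95% confidence interval from limma) at each time of LPS (min, evenly spaced) for the 8 tested genes. Filled points passed an adjusted p of 0.05: the lowest points are those of Ass1 at 0, 30 and 120 min (-0.58, -0.57 and -0.53), Nos2 at 120 min (-0.53) and Irg1 at 60 min (-0.50), Slc7a2 and Sod2 have filled points above 0, and no point is filled at 360 min.

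Slc7a2, the arginine transporter, was higher in D310N. In WT its libraries stood at 8.74, 8.79 and 8.76 at 60 min, at 11.43, 11.34 and 11.21 at 120 min and at 12.07, 11.96 and 12.09 at 240 min. In D310N they stood at 9.24, 8.91 and 9.26, at 11.60, 11.44 and 11.93, and at 12.46, 12.07 and 12.47. Replicate 2 was the lowest of the 3 D310N libraries at each of these times. The genotypes had no overlap at 60 and 120 min, as for 37.4% and 31.7% of all tested genes. The difference was 0.37 ± 0.10 at 60 min (limma adjusted p = 0.0135), 0.34 ± 0.10 at 120 min (adjusted p = 0.0228), 0.29 ± 0.10 at 240 min (adjusted p = 0.0518) and 0.23 ± 0.10 at 360 min (adjusted p = 0.123). At 0 and 30 min it was 0.06 ± 0.10 and 0.10 ± 0.10, and 0.23 ± 0.04 on average (adjusted p = 4.06e-05).

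Single libraries decided the calls of Slc7a2 at single times, while its call on average was lost under 0 of 45 alternatives (limma adjusted p up to 0.000116). The 60 min call was lost without WT replicate 1 (0.36, adjusted p = 0.0537), D310N replicate 1 (0.32, 0.0893) or D310N replicate 3 (0.31, 0.0965), the last being the highest adjusted p of a range that began at 4.00e-05. The 120 min call was lost without WT replicate 2 (0.34, 0.0523), WT replicate 3 (0.28, 0.114) or D310N replicate 3 (0.20, 0.224), in a range from 0.00457 to 0.224. At 240 min the difference passed under 12 alternatives, 7 of them leaving out 1 library, with adjusted p from 0.0018 to 0.224. These libraries were D310N replicate 2 of 240 min (0.42, adjusted p = 0.00617), of 30 min (0.0487), of 60 min (0.0360), of 120 min (0.0380) and of 360 min (0.0440), D310N replicate 3 of 120 min (0.0290) and WT replicate 1 of 360 min (0.0355). With the replicate number as a block, adjusted p was 0.0177. Without D310N replicate 2 of 360 min the difference at that time was 0.32 (adjusted p = 0.0491, in a range from 0.0184 to 0.367). The rise of Slc7a2 over 0 min did not pass a test of a different response at any time. Jointly the adjusted p was 0.598, and 0.0487 with the replicate block.

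Ass1, which joins citrulline and aspartate on the way back to arginine, varied widely between libraries, with an SE of 0.18 for each difference. In WT its libraries stood at 7.997, 8.37 and 8.71 at 0 min, at 8.15, 8.43 and 8.48 at 30 min and at 8.71, 8.38 and 8.62 at 120 min. In D310N they stood at 7.61, 8.06 and 7.67, at 7.86, 7.96 and 7.52, and at 8.10, 7.76 and 8.25. The genotypes overlapped at 0 min, where 1 D310N library passed the lowest of WT. They had no overlap at 30 and 120 min, as for 33.4% and 31.7% of all tested genes. The difference was -0.58 ± 0.18 at 0 min (limma adjusted p = 0.0350), -0.57 ± 0.18 at 30 min (adjusted p = 0.0346) and -0.53 ± 0.18 at 120 min (adjusted p = 0.0399). At 60, 240 and 360 min it was 0.25, 0.05 and -0.14 (adjusted p = 0.433, 0.878 and 0.646).

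Leaving out 1 library ended each of the 3 calls of Ass1 at single times in 4 ways. At 0 min these were WT replicates 2 and 3 and D310N replicates 1 and 3, at 30 min the replicates of the same numbers, and at 120 min WT replicates 1 and 3 and D310N replicates 1 and 2. Without the most influential of them the differences were -0.40 at 0 min (without WT replicate 3, adjusted p = 0.242), -0.44 at 30 min (without D310N replicate 3, 0.212) and -0.39 at 120 min (without D310N replicate 2, 0.191). These were the highest values of ranges that began at 6.38e-05, 0.00435 and 0.0104. Without an intensity trend the 3 calls were also lost (0.0517, 0.0517 and 0.0557), and that at 120 min without a filter (0.0503). A different LPS response of Ass1 was called at no time, except at 60 and 240 min with library weights (0.00561 and 0.00831). At 60 min the difference in response was 0.83 ± 0.26 (adjusted p = 0.761, up to 1.0 over the alternatives), the mean in WT being 0.43 below 0 min and that in D310N 0.40 above it. The joint F test gave an adjusted p of 0.101 for Ass1, which became 0.0323 without replicate 1 of WT at 360 min, 0.0458 without WT replicate 1 of 0 min and 0.0482 without WT replicate 2 of 360 min, in a range from 0.00244 to 0.196.

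After LPS, Ass1 was called higher than at 0 min only late, at 360 min in WT (0.75 ± 0.18, adjusted p = 0.000444) and at 240 min (1.00 ± 0.18) and 360 min (1.18 ± 0.18) in D310N. Its WT libraries at 240 min stood at 8.75, 8.36 and 9.07, overlapping those at 0 min (0.37 ± 0.18, adjusted p = 0.0629). That p fell under the threshold without WT replicate 3 of 0 min (0.0118), WT replicate 2 of 240 min (0.0108) or WT replicate 1 of 360 min (0.0408), in a range up to 0.376. The D310N libraries at 240 min stood at 8.78, 8.76 and 8.81, all above those at 0 min. In that comparison 82.7% of all tested genes had no overlap in either direction. At 60 min the values were -0.43 in WT (adjusted p = 0.0603) and 0.40 in D310N (0.0846). The WT value passed without WT replicate 1 of 0 min (0.0130), replicate 2 or 3 of 240 min or replicate 1 or 2 of 360 min, in a range from 0.00209 to 0.351. That of D310N passed without its replicate 2 of 0 min (0.0344) or replicate 1 of 60 min (0.0388), in a range from 0.00455 to 0.257.

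Arg2, the mitochondrial arginase, was the member whose course turned back. Its WT libraries stood at 2.92, 2.48 and 2.79 at 0 min, at 4.46, 4.35 and 4.39 at 60 min, at 4.89, 4.87 and 4.78 at 120 min, and at 3.48, 3.79 and 3.33 at 240 min. All 3 libraries at 120 min were above all 3 at 60 and at 240 min. Over these 2 WT steps 66.3% and 68.9% of all tested genes had no overlap in either direction. From 120 to 240 min Arg2 fell by 1.31 ± 0.19 in WT (limma adjusted p = 3.56e-07) and by 1.22 ± 0.19 in D310N (adjusted p = 1.39e-06), when none of the other 7 tested members was called lower. The WT step of 0.45 from 60 to 120 min (adjusted p = 0.0456) was lost under 9 alternatives, among them without any of the 6 WT libraries of these times and without replicate 3 of D310N at 0 or 60 min, in a range from 0.00274 to 0.105. At 120 min it stood 4.33-fold above 0 min in WT and 4.49-fold in D310N, and at 360 min 1.63-fold and 1.60-fold. The WT value at 360 min missed the threshold with library weights (0.0506) and with only the compared groups (0.0515), in a range from 0.000115. The transformation behind the deposited values is not named, and such folds of a weakly expressed gene may be too small. Between genotypes no single time was called, from -0.45 ± 0.19 at 30 min (adjusted p = 0.130, and 0.0322 with library weights, in a range up to 0.528) to -0.07 ± 0.19 at 240 min. The average of -0.21 ± 0.08 (adjusted p = 0.0260) was lost without D310N replicate 3 of 30 min (-0.18, adjusted p = 0.0511), under quantile normalisation (0.153) and with library weights (0.0674), in a range from 0.00682 to 0.153.

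Gch1, the cofactor enzyme, and Cybb, the oxidase subunit, rose in both genotypes with small differences between them. WT libraries of Gch1 ranged from 8.88 to 9.04 at 0 min, from 10.02 to 10.06 at 60 min and from 11.30 to 11.43 at 240 min. D310N libraries ranged from 8.84 to 8.92, from 9.93 to 9.98 and from 11.26 to 11.28. They were below all WT libraries at 60 and 240 min by small amounts. At these times 37.4% and 37.6% of all tested genes had no overlap in either direction. The difference was -0.10 ± 0.04 at 60 min (limma adjusted p = 0.134, and 0.0114 with library weights, in a range up to 0.337) and -0.11 ± 0.04 at 240 min (adjusted p = 0.0692). It was -0.07 ± 0.02 on average, a change of -4.50% (adjusted p = 0.00179). The 240 min difference passed without WT replicate 2 of that time (-0.14, 0.0353) or replicate 1 of WT at 360 min (0.0479), in a range from 0.0207 to 0.276. The call of Gch1 at 30 min of LPS in D310N (0.15 ± 0.04, adjusted p = 0.0243) was lost without replicate 1 or 2 of D310N at 0 min (0.0754 and 0.133) or replicate 1 or 3 at 30 min (0.0535 and 0.180), in a range from 0.00252. In WT the same step of 0.13 ± 0.04 missed the threshold (0.0695). It passed with the replicate block (0.0493) and without WT replicate 3 of 0 min (0.0320), WT replicate 1 of 360 min (0.0442) or D310N replicate 1 of 120 min (0.0473), in a range from 0.0243 to 0.307.

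Cybb libraries ranged from 14.08 to 14.16 in WT and from 14.05 to 14.16 in D310N at 0 min, from 15.11 to 15.27 and from 15.12 to 15.29 at 120 min, and from 15.81 to 16.00 and from 15.96 to 16.04 at 360 min. The genotypes overlapped at all 6 times. Cybb was called between genotypes at no time, and its average difference was 0.003 ± 0.02 with a 95% interval of -0.04 to 0.05 (limma adjusted p = 0.919). At 360 min it was 0.07 ± 0.05 (adjusted p = 0.359), and 0.18 under quantile normalisation (adjusted p = 0.0356, in a range up to 0.854).

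Sod2, the mitochondrial superoxide dismutase, had the largest rise by 30 min of the 8 tested members. WT libraries stood at 10.70, 10.63 and 10.70 at 0 min and at 11.30, 11.34 and 11.32 at 30 min, a rise of 0.65 ± 0.04 (limma adjusted p = 7.06e-13), and D310N libraries rose by 0.69 ± 0.04. At 120 min 31.7% of all tested genes had no overlap between genotypes. For Sod2, WT libraries then stood at 13.02, 13.12 and 13.00 and D310N libraries at 13.28, 13.26 and 13.23, with no overlap. This difference of 0.22 ± 0.04 (16.1% higher in D310N, adjusted p = 0.000823) was the only call at a single time. At 30, 60 and 360 min the differences were 0.11, 0.10 and 0.10 (adjusted p = 0.109, 0.147 and 0.130), and the average was 0.10 ± 0.02 (adjusted p = 2.03e-05). With library weights those at 30 and 60 min passed (0.0273 and 0.006, in ranges up to 0.496 and 0.442). At 60 min the adjusted p was 0.0416 without D310N replicate 2 of that time.

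The steps between consecutive times separate the courses further. Their counts include Arg2, which entered the tests only through its values after LPS. From 30 to 60 min 7 of 8 members rose in WT and 7 in D310N, Ass1 being the exception, where 33.6% and 31.8% of all tested genes were called in either direction. Ass1 gave -0.43 in WT (adjusted p = 0.0707, and 0.0482 and 0.0404 without WT replicate 1 of 30 or 360 min, in a range from 0.00113 to 0.209). In D310N it gave 0.40 (0.0983, and 0.0472 without replicate 1 of 60 min, in a range from 0.0257 to 0.376). From 60 to 120 min 8 rose in WT and 6 in D310N (54.1% and 54.8%), where Arg2 gave 0.38 (adjusted p = 0.0892, and 0.0418 without WT replicate 1 of 360 min, in a range from 0.0261 to 0.237). From 120 to 240 min 6 rose and 1, Arg2, fell in WT, and 7 rose and 1 fell in D310N (64.3% and 63.0%), though under quantile normalisation the rise of Sod2 was 0.03 in WT (adjusted p = 0.614, from 0.36 as deposited) and turned to -0.10 in D310N (0.0661, from 0.18). From 240 to 360 min 1 rose in WT, Nos2, and 5 in D310N, namely Nos2, Irg1, Gch1, Cybb and Sod2, where 26.3% and 38.9% of all tested genes were called. Whether these last steps differ between genotypes was not tested. Of the 5, the step of Irg1 was 0.12 ± 0.04, of Gch1 0.16 ± 0.04, of Cybb 0.17 ± 0.05 and of Sod2 0.11 ± 0.04 (limma adjusted p = 0.0131, 0.00281, 0.0110 and 0.0466). The call of Sod2 was lost under 19 of 46 alternatives, 15 of them leaving out 1 library (adjusted p from 0.0285 to 0.914). That of Irg1 was lost without replicate 1 of D310N at 240 min (0.0968) or replicate 2 at 360 min (0.0686), in a range from 0.00453 to 0.153, and that of Cybb without replicate 2 at 360 min (0.0574), in a range from 0.00152. Without replicate 3 of WT at 240 min Ass1 was called over that step in WT (0.55, 0.0467). Without replicate 1 of WT at 360 min 4 WT members were called over that step, Nos2, Ass1 (0.57, 0.0120) and Cybb (0.13, 0.0407) upward and Irg1 (-0.11, 0.0169) downward.

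**Figure D3:**
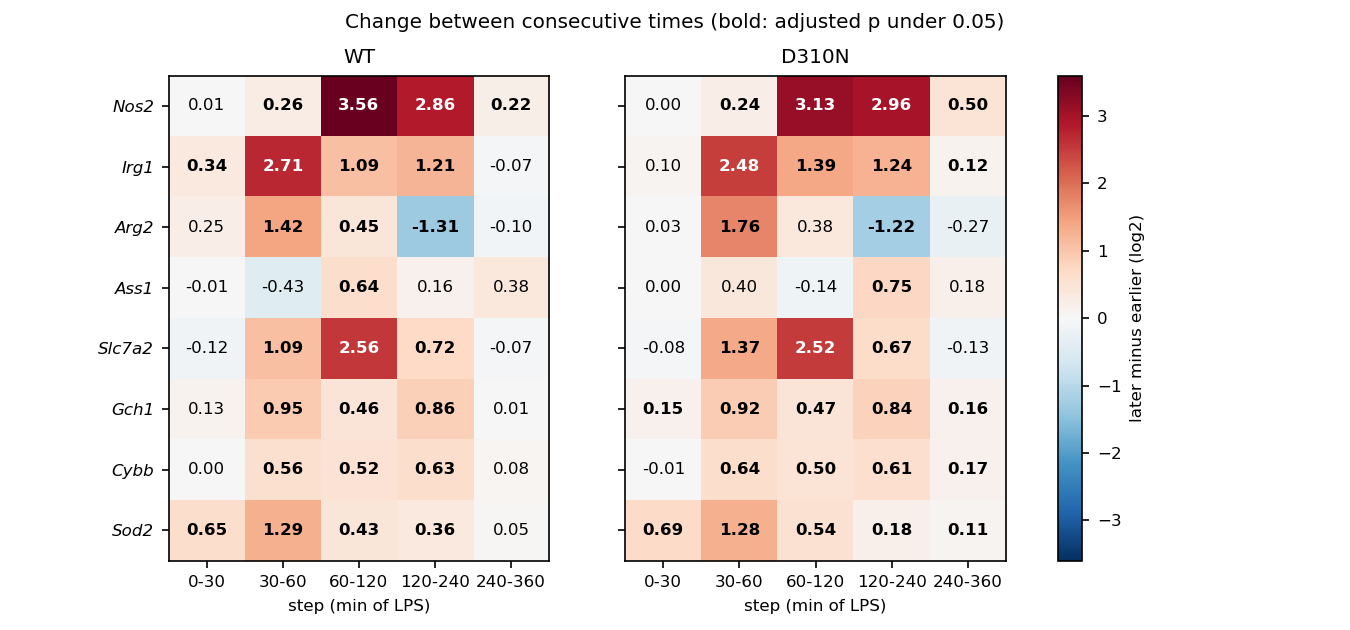
Change between consecutive times of LPS (log2, later minus earlier, by colour and printed value) for the 8 tested genes in WT (left) and D310N (right), with called steps in bold. The largest step of Nos2 and Slc7a2 is 60 to 120 min in both genotypes and that of Irg1 and Sod2 is 30 to 60 min, while Arg2 is the only gene with a called fall, from 120 to 240 min.

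Ordered by level over the 12 groups, 8 of the 11 pairs of neighbours of Irg1 had no overlap between their libraries, against 3 that overlapped. Nos2 had 4 overlapping pairs, Sod2 5, Gch1 6, Slc7a2 7, Cybb 8, Arg2 9, Ass1 10 and Arg1 all 11. Such counts were not made for all tested genes, so they describe each member and mark none as unusual. For Nos2 the order ran from D310N at 0 min (mean 6.49) to WT at 360 min (13.47), and WT at 240 min (13.25) lay between D310N at 240 min (12.83) and D310N at 360 min (13.33) without overlap on either side. For Irg1 the 3 highest groups, WT at 360 min (15.95), D310N at 360 min (15.96) and WT at 240 min (16.01), overlapped in turn.

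The genes whose 12 group means followed a member most closely were found among 5023 tested genes that spanned at least 1 in log2. They are given by Pearson's r as a description, since all share the same 36 libraries and the same LPS course. For Nos2 these were Pla1a (0.999), Hdc (0.999) and Lag3 (0.999), for Irg1 Cd40 (0.997), Inhba (0.996) and Mmp13 (0.996), and for Slc7a2 Mllt6 (0.997), Nfkb1 and Mab21l3 (both 0.996). For Gch1 they were Casp4, Rhbdf2 and Rap1b (all 0.997), for Cybb Htra4, Adhfe1 and Mnda (all 0.997) and for Sod2 Srgn, Bcl2a1d (both 0.996) and Bcl2a1b (0.995). Arg2 was followed by Nipal1 (0.986), Pik3r1 (0.983) and Fam133b (0.982), and Ass1 less closely by B230307C23Rik (0.944), Atrnl1 (0.927) and Hap1 (0.926). Among the members, Irg1 and Gch1 correlated at 0.990 and Irg1 and Nos2 at 0.910, while Arg2 correlated with the others at 0.060 (Ass1) to 0.625 (Sod2).

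Other genes of these pathways were followed in 8 lists, with calls at 240 min of LPS in WT (39.6% of all tested genes called higher and 40.4% lower) and between genotypes on average (22.7% higher and 25.4% lower, 48.1% in all). Of 13 tested genes of arginine transport and recycling, 5 rose and 7 fell after LPS, with a median of -0.18 against -0.02 over all genes. The amino acid transporters Slc7a7 (1.54 ± 0.05) and Slc7a8 (1.15 ± 0.06) rose most, and Nostrin, which binds the endothelial nitric oxide synthase (-1.25 ± 0.07), and Slc7a6 (-1.14 ± 0.07) fell most. Between genotypes 0 were higher and 6 lower in D310N, led by the asparagine synthetase gene Asns (-0.55 ± 0.04, limma adjusted p = 1.30e-12), which acts outside the arginine route, and including the arginine transporter Slc7a1 (-0.26) and Asl (-0.11), the partner of Ass1. The median was -0.04 against -0.001 over all genes. Slc7a1 was thus lower in D310N where Slc7a2 was higher.

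Of 13 genes of ornithine and polyamine metabolism, 4 rose and 6 fell after LPS (median -0.13), among them Sat1, which acetylates polyamines (1.15 ± 0.06), Odc1, which makes putrescine from ornithine (0.33 ± 0.05), the polyamine oxidase gene Paox (-1.02 ± 0.11) and Aldh18a1 of proline synthesis (-0.50 ± 0.08). Between genotypes 2 were higher and 6 lower, Paox most (-0.40 ± 0.05, limma adjusted p = 2.31e-08). Of 6 tetrahydrobiopterin genes, 1 rose and 2 fell after LPS (median -0.04). The sepiapterin reductase gene Spr, of the last step of the synthesis, changed by -0.61 ± 0.08. Between genotypes 1 was higher and 2 lower.

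Of 8 tested genes of the NADPH oxidase list, without Cybb, 7 rose and 1 fell after LPS (median 0.28). Besides oxidase subunits that list names Cybrd1 and Cyb5r4. Nox1, the catalytic subunit of another oxidase, rose by 3.05 ± 0.10 and the cytosolic subunit gene Ncf1 by 1.103 ± 0.05. Between genotypes 1 was higher and 3 lower, Nox1 most (-0.34 ± 0.04, limma adjusted p = 1.84e-08). Of 18 genes that remove superoxide and peroxide besides Sod2, 5 rose and 8 fell (median -0.10), the peroxiredoxin gene Prdx5 (1.29 ± 0.07) and the thioredoxin gene Txn1 (1.13 ± 0.06) rising most and Gclc, which starts glutathione synthesis (-1.14 ± 0.09), and Msrb1 (-0.52 ± 0.05) falling most. Between genotypes 8 were higher and 3 lower, Prdx1 most (0.54 ± 0.07, adjusted p = 1.42e-07), with a median of 0.04 (all genes -0.001).

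Of 25 genes of the citrate cycle and its carriers, from which Irg1 draws, 12 rose and 8 fell after LPS (median 0.04). The carrier genes Slc25a10 (0.69 ± 0.07) and Slc25a1 (0.43 ± 0.04) rose most, and Idh1 (-0.74 ± 0.05) and Aco1 (-0.39 ± 0.05), both cytosolic enzymes of isocitrate, fell most. Between genotypes 10 were higher and 3 lower, a share called near the 48.1% of all genes, Idh1 most (0.17 ± 0.02, limma adjusted p = 6.01e-08). Of 17 genes that mark alternative activation with Arg1, 8 rose and 7 fell after LPS (median 0.16). The chemokine genes Ccl22 (5.34 ± 0.08) and Ccl17 (4.54 ± 0.13) rose most, and Cd163 (-1.72 ± 0.14) and Pparg (-1.68 ± 0.07) fell most. Between genotypes 3 were higher and 7 lower, the lectin gene Clec10a most (-0.79 ± 0.05, adjusted p = 1.09e-13).

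Of 20 inducers and partners of Nos2, 17 rose and 1 fell after LPS, with a median of 0.95 against -0.02 over all genes. Ifnb1, the interferon beta gene (3.70 ± 0.22), and the kinase gene Jak2 (3.34 ± 0.05) rose most, and the interferon gamma receptor gene Ifngr1 (-0.95 ± 0.05) fell. Between genotypes 5 were higher and 6 lower with a median near 0 (-0.004), and the largest difference was that of Ifnb1 (-0.46 ± 0.09, limma adjusted p = 7.29e-05). The difference of Jak2 was -0.00024 ± 0.02 (adjusted p = 0.995).

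**Figure D4:**
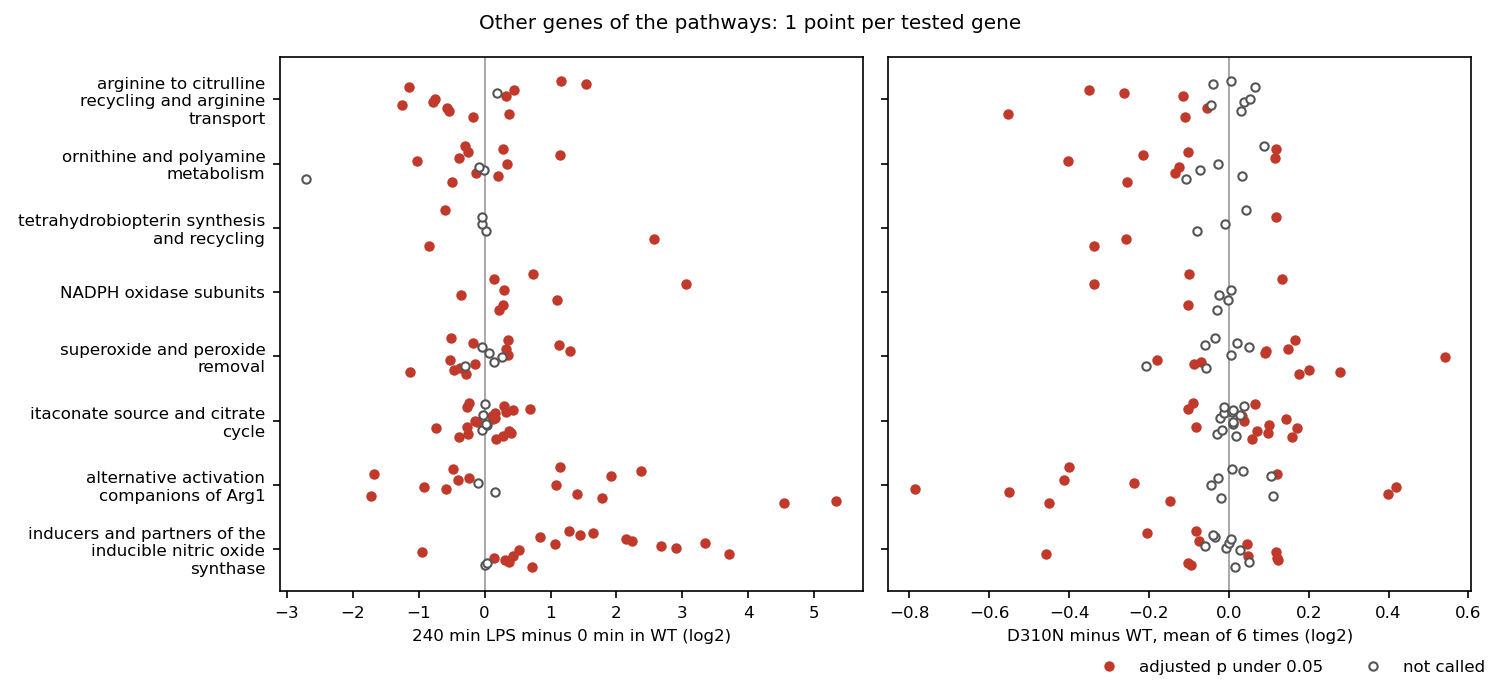
Difference (log2) of each tested gene of the 8 pathway lists at 240 min of LPS against 0 min in WT (left) and between D310N and WT on average over the 6 times (right), 1 point per gene, filled where the adjusted p was under 0.05. After LPS the list of inducers and partners of Nos2 and the NADPH oxidase list have most of their genes called higher (17 of 20 and 7 of 8), and on the right the arginine transport list has 6 filled points, all below 0.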

How the data were processed

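RNA of 36 libraries (12 groups of genotype and time, 3 each) was sequenced. The submitters' processing notes name the tools STAR 2.5.2a, RSEM 1.2.31 and DESeq2 1.10.1 and the build mm10. What the authors deposited are normalised values on a log2 scale, from -4.14 to 19.3. The transformation to log2 is not given in the sources used here, and the read depth is unknown, so no counting error is given. Groups were taken from the sample titles, which write D310N where the table's header writes D309N. Rows whose names had become dates (23) were left out, which left 16416 genes.

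The plan had foreseen log2(value + 1), with the deposited values kept if already on a log2 scale, and they were kept. limma 3.58.1 in R 4.3.3 was fitted to 12 group means over all 36 libraries with an intensity trend (24 residual degrees of freedom), for D310N against WT at each time and on average, each LPS time against 0 min, the difference of these responses (and jointly by F test) and consecutive times. P-values were two-sided and Benjamini-Hochberg adjusted over 11656 genes. The script was tested on simulated data. All 9 members are named. Of each list the text names the 2 largest called rises and 2 largest called falls at 240 min in WT and the largest called difference between genotypes, besides 2 genes (Slc7a1, Asl) chosen after their values were seen. A few genes picked this way are left out here. For each member the 3 most similar genes are named. The members, lists and tests were chosen with earlier results of these data known.

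Alternatives were other filters (none, or 50 on the linear scale), quantile or trimmed mean scaling (30% off each end), pseudocounts of 0.5 and 8, library weights, no trend, only the compared groups, a replicate block, and leaving out each library. Deviations of same-numbered libraries correlated above 0.1, the limit used for a pairing, in all 3 pairs for D310N at 120 min against 0 min (0.131 to 0.373). For the other D310N times against 0 min all 3 were positive, but the lowest was 0.067, 0.037, 0.100 and 0.089 at 30, 60, 240 and 360 min. The labels say nothing of a shared source. Otherwise the libraries were taken to share only a number.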

Additional observations from a re-analysis of the deposited data

Results flagged for a closer look

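The LPS response of 2 members differed between the genotypes by a test of the difference itself. For Irg1 the rise over 0 min at 60 min was smaller in D310N than in WT by 0.47 in log2, a difference of -0.47 ± 0.05 (limma adjusted p = 2.71e-06). For Nos2 the difference in the rise was -0.45 at 120 min (adjusted p = 0.0100) and -0.35 at 240 min (adjusted p = 0.0467). The call at 120 min was lost without replicate 1 of WT at 120 min (-0.38, adjusted p = 0.0525, in a range from 0.000159 to 0.0525). The call at 240 min was lost under 30 of 46 alternatives (adjusted p from 0.000244 to 0.116). Over the 5 times jointly, the adjusted p of the F test was 0.00227 for Nos2 and 1.33e-06 for Irg1. At 360 min the rises differed by -0.07 ± 0.09 for Nos2 (adjusted p = 0.797, and -0.19 with 0.170 without replicate 1 of WT at 360 min, in a range from 0.170 to 0.916) and by 0.04 ± 0.05 for Irg1 (adjusted p = 0.769).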

How the results depend on the processing

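Of 248 comparisons of single members, each recomputed under up to 46 settings, 11181 outcomes kept their side of the threshold, 103 lost a call and 76 gained one. Among those 11181, 112 values that were not called changed sign without passing the threshold. Of the called values 1 changed sign, that of Sod2 from 120 to 240 min in D310N, 0.18 as deposited and -0.10 under quantile normalisation (adjusted p = 0.0661). Under that scaling, the lowest median of all genes was -0.105, at 240 min of LPS in D310N, where it was -0.022 as deposited. The split of genes called higher and lower at 30 min of LPS in WT moved from 558 and 152 to 601 and 621. Depth is unknown, and weakly expressed genes (Arg1, Arg2) are limited most.

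Among the 8 members, the number called between genotypes at 0 min was 0 without an intensity trend. At 30 min it was 4 with library weights and 1 without a trend, and with weights it was 4 at 60 min, 4 at 240 min and 2 at 360 min. At 360 min it was 1 under quantile normalisation. After 30 min of LPS in D310N it was 1 under quantile normalisation and 1 with only the compared groups. For different responses it was 1 at 30 min and 2 at 60 min with weights. At 240 min it was 0 without a filter, 0 without a trend, 0 with the replicate block and 2 with weights. From 240 to 360 min it was 2 in D310N under quantile normalisation, 2 in WT with weights and 0 in WT with only the compared groups. With the replicate block, calls were gained for Slc7a2 at 240 min between genotypes and jointly, Ass1 at 60 min in WT (-0.43, adjusted p = 0.0484) and Gch1 at 30 min in WT, and of all calls of members only that of Nos2 at 240 min in the response was lost.

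Leaving out each library in turn gave 0 to 1 members between genotypes at 0 min, 1 to 2 at 30 min, 1 to 3 at 60 min, 3 to 5 at 120 min, 2 to 4 at 240 min and 0 to 1 at 360 min. It gave 1 to 3 after 30 min of LPS in D310N, 0 to 2 different responses at 120 min and 0 to 1 at 240 min. From 240 to 360 min it gave 0 to 4 in WT and 3 to 5 in D310N.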
